A study of Mus musculus with 8 samples.

Results

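The cytosolic ribosomal protein genes are taken here as the gene symbols that begin with Rpl or Rps and a digit, with Rplp0, Rplp1, Rplp2 and Rpsa, and without symbols that hold -ps. The pattern found 96 of the 32285 genes listed. Of these, 77 encode structural proteins of the cytosolic ribosome, 46 of the large and 31 of the small subunit. Another 8 are paralog forms, near copies of a structural gene, and 11 encode no ribosomal protein, being kinases of a ribosomal protein (the Rps6k genes) and Rps19bp1. The structural genes held 48043359 unique molecular identifiers (UMIs, each standing for 1 captured transcript), 99.2% of those of the 96. Fau, which encodes a ribosomal protein fused to a ubiquitin-like protein, falls outside the pattern.

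Single-cell transcripts were counted in CD45+ leukocytes sorted from the submandibular gland, a salivary gland, and from the lymph nodes that drain it. The mice were 4 of genotype SS and 4 of genotype control, about 12 weeks old; the labels do not spell out SS and name no treatment. The 4 expression samples are SS gland, control gland, SS lymph nodes and control lymph nodes, 1 of each, so no group has a replicate. The labels do not say which animals went into which sample, nor which of the libraries C1, C2, C3 and C4 is which sample. No library was therefore given a genotype or tissue, and each is described on its own, with no test. Ranges in parentheses after a value are 95% intervals that cover counting error alone and not differences between mice.

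A ribosome joins a small subunit, which reads the messenger RNA, to a large subunit, which forms the peptide bonds. Each subunit holds ribosomal RNA and 1 copy of most of its proteins. Vertebrate messenger RNAs for these proteins start with a short run of pyrimidines (C and T), the terminal oligopyrimidine tract, through which their translation is tied to the growth-regulating kinase mTOR. Translation elongation factors carry the same kind of tract. Naive lymphocytes are small resting cells, and effector T cells and plasma cells make secreted proteins.

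The tract can be looked for near annotated transcript starts. Promoter sequences from RefSeq (build GRCm38.p6, the same assembly as mm10) matched 57 of the 77 structural genes. A run of at least 8 pyrimidines that opens with C lay between 20 bases before and 50 bases after the start in 45 of them (78.9%), against 22.7% of the 27025 genes in the table. The same run on the opposite strand was found in 12.3% and 26.0%. The letters CCGGAAG, a core of ETS factor motifs searched on both strands of the 300 bases, were in 42.1% of the structural genes and 9.93% of all. Its opposite-strand spelling opens with pyrimidines and can overlap a run. AAGATGGC, the core of the YY1 motif, was in 8.77% and 3.19% on both strands. TATAAA in the 50 bases before the start was in 0 of 57 and in 3.15%. These are matches of letters, and a start given in the annotation can lie some bases from the one used in a cell. Windows are shown for 11 genes that have such a run and whose values are described further on. Rpl27 and Rpl24, also described further on, had a promoter sequence but no such run. Each window is written 5′ to 3′ on the gene's own strand, with the pyrimidine run in capitals.
Rps19: cgcccgggaaaccccgtcgttCCCTTTCCC
Rpl12: ggaggaggcaacggtgcaaCTTTCTTCggt
Rpl36a: ggctctagCCTCTCTCTTTCCgagctgcta
Rps24: ttggtcggcagtgagcggtCCTCTTTTCCT
Rps12: caccgccggCCTTTTCCCCTgccgccgccg
Rpl13a: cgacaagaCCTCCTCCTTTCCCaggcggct
Rpl41: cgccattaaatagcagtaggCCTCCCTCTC
Rpl10: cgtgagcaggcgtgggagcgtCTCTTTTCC
Rpl7a: caattCCCTCTTCTTTCTTTCTCCagcagc
Rps27: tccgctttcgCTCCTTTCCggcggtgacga
Rpl35: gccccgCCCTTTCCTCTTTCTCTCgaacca
In the same order these windows lie at chr7:24884612-24884641 (plus strand), chr2:32961732-32961761 (plus strand), chrX:134585673-134585702 (plus strand), chr14:24490698-24490727 (plus strand), chr10:23787181-23787210 (minus strand), chr7:45128722-45128751 (minus strand), chr10:128549119-128549148 (minus strand), chrX:74270836-74270865 (plus strand), chr2:26910790-26910819 (plus strand), chr3:90213631-90213660 (minus strand) and chr2:39005115-39005144 (minus strand). The run shown has 11 bases in Rps12 and 14 in Rpl13a, and at least 9 in Rps19 and in Rpl10. In Rps19, Rpl10, Rpl41 and Rps24 it reaches the end of the sequence searched and may go on beyond it. The runs of Rps19 and Rpl10 begin 41 bases after the annotated start.

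After filtering, C1, C2, C3 and C4 held 5450, 5067, 8530 and 5841 barcodes whose median depths were 6130, 4939, 8076 and 5158 UMIs. Ptprc, the gene of CD45, had a UMI in 87.3%, 94.4%, 97.6% and 93.8% of them. Between 31 and 85 kept barcodes were shared by each pair of libraries, at most 1.43% of either. Doublet calling found 166, 0, 2 and 116 barcodes and so did not work in C2 and C3. Classes were named from marker genes, which the ending -like marks. Salivary gland genes made up 3.45% and 4.07% of kept UMIs in C1 and C2 and 0.000645% and 0.00145% in C3 and C4, although the sort was for leukocytes. Barcodes of 50 to 199 UMIs, which mostly hold free RNA, had a ribosomal protein share of 2.59%, 2.32%, 16.3% and 14.1% in C1 to C4.

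Of all kept UMIs, 15.8%, 18.3%, 34.3% and 32.6% came from ribosomal protein genes in the libraries C1 to C4. The libraries hold different cells, and in C3 alone the classes and clusters ran from 5.97% to 39.6%. Of the named classes the share was highest in naive T-like barcodes, which carry Lef1, Ccr7 and Dapl1, at 37.8% (37.74 to 37.84%) in C3 and 36.6% (36.62 to 36.66%) in C4. It was higher still in cluster 0, at 39.6% (39.56 to 39.59%) in C3 and 37.5% (37.43 to 37.56%) in C4. Cluster 0 had T cell markers but stayed unnamed because Ly6c2, on the monocyte list, was among its leading genes, beside Gzmm, Il7r and Cd8b1. It also carried more Ccl5, a marker of effector T-like barcodes, than naive T-like barcodes did in C3 and in C4.

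Effector T-like barcodes, marked by Gzmk, Ccl5, Pdcd1 or Il17a, had a share of 23.3% (23.27 to 23.37%) in C1 and 22.0% (21.95 to 21.99%) in C2. In C3 they stood at 28.5% (28.48 to 28.56%), and in C4 at 24.7% (24.54 to 24.80%). Different clusters held most of this class: cluster 1, led by Gzmk and Pdcd1, in C2, cluster 8, led by Gzmk and Esm1, in C3, and cluster 10, led by Il17a and Il17f, in C1 and C4. The C4 value rests on 66 barcodes, of which the 48 in cluster 10 stood at 21.0%. The C3 share depended on the classing. It was 23.9% with that library clustered alone (416 barcodes, against 944) and 23.3% with a class per barcode (484 barcodes). NK-like barcodes, with the receptor gene Ncr1, were at 23.1% in C1 and 21.3% in C2. B-like barcodes had 24.6%, 27.0% and 26.3% in C1, C3 and C4. B-like barcodes were above effector T-like ones in C1 and C4. In C3 they were below, with a ratio of 0.946, but this order depended on the setting. B-like over effector T-like in C3 was 1.15 with each library clustered alone, 1.16 with a class per barcode, 1.09 over barcodes of 2000 to 6000 UMIs and 1.05 for medians over barcodes.

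Macrophage-like barcodes, with the complement genes C1qa, C1qb and C1qc, had a lower share than T-, NK- and B-like barcodes, 11.5% (11.47 to 11.50%) in C1 and 12.4% (12.36 to 12.42%) in C2. Their main cluster in C1 was led by Cxcl2, Il1a and the stress genes Atf3 and Hspa1a. Monocyte-like barcodes lay between, at 17.1%, 15% and 18.8% in C1, C2 and C3. The 23 macrophage-like barcodes of C3 stood at 21.1% with a median of only 959 UMIs. Further on they enter only the class means of each gene's share of ribosomal protein UMIs.

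Plasma-like barcodes, which secrete antibody and carry Jchain and Mzb1, had the lowest share of the named leukocyte classes: 5.71% in C1 (43 barcodes), 5.33% in C2 (22) and 5.97% in C3 (35), all under the minimum of 50 barcodes set for a class. Immunoglobulin transcripts took 65.2%, 65.9% and 64.9% of their UMIs. With immunoglobulin genes left out of the total the share became 16.4%, 15.6% and 17.0%. The count of ribosomal protein UMIs per barcode was not low: its median was 1585, 1622 and 1501 in plasma-like barcodes, beside 1831 and 2210 in the naive T-like barcodes of C3 and C4 and 684 and 995 in the macrophage-like ones of C1 and C2.

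A lower share was found in the unnamed cluster 11, 3.04% of UMIs in C1 (43 barcodes) and 4.00% in C2 (527 barcodes), the latter with a median over barcodes of 1.41%. In C2 its barcodes had a median of 1177 UMIs, 5.80% mitochondrial UMIs at the median against 1.33% in effector T-like barcodes of C2, and Gm43065, Gm26917 and Ttn among their leading genes. Cluster 25, 25 barcodes of C4 counted as B-like, had 2.19%, with 5.65% mitochondrial UMIs at the median. The share in free RNA of C2 was 2.32%. Whether depth or RNA quality set these low shares was not tested.

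**Figure D1:**
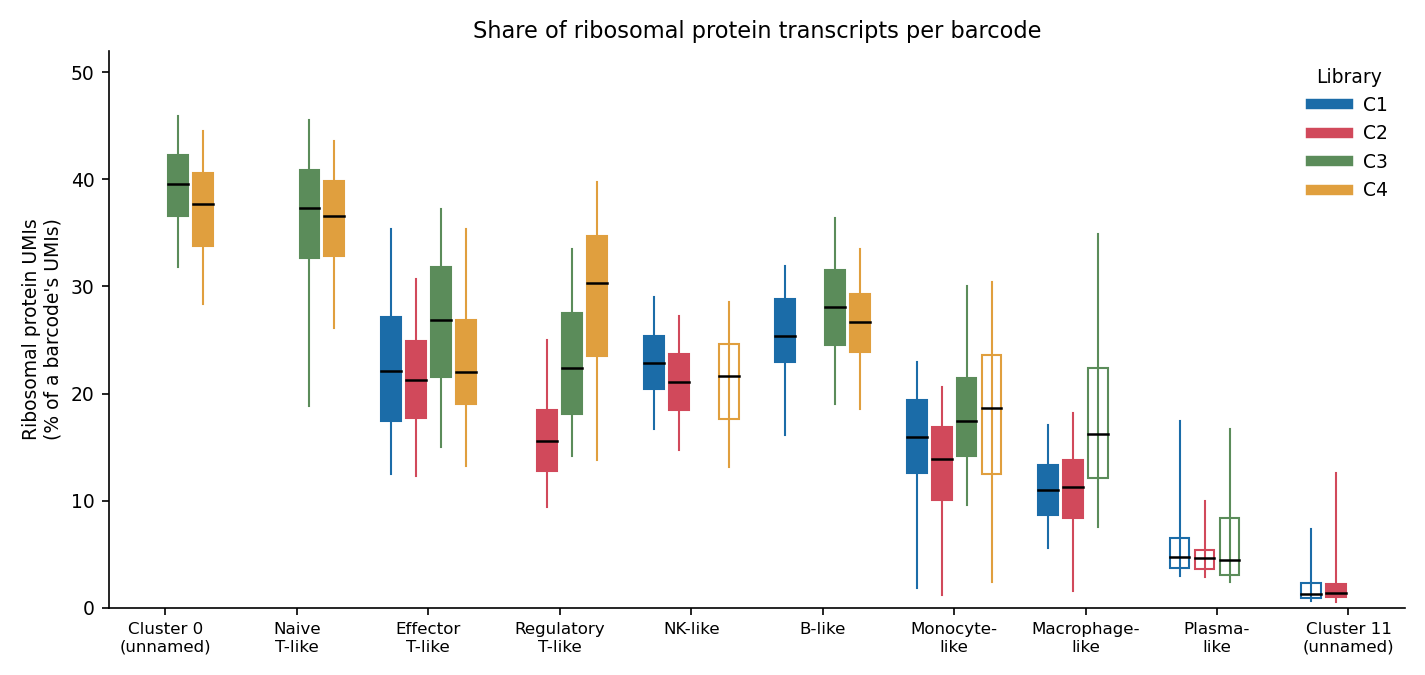
Percent of each barcode's UMIs from the 96 genes that the pattern found, by class and library. The line in a box is the median, the box the quartiles and the whisker the 5th to 95th percentile over barcodes. Open boxes have under 50 barcodes. Naive T-like barcodes and cluster 0 lie highest, with medians of 36.6% to 39.5%, and plasma-like barcodes lowest of the named leukocyte classes.

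Barcodes of 1 class and library differed far beyond counting error. The SD of the share over barcodes was 4.04 points in NK-like barcodes of C1 and 8.92 points in naive T-like barcodes of C3, where counting alone gives 0.523 and 0.708. Part of this spread went with depth. Ordered by UMIs in 4 equal parts, naive T-like barcodes of C3 went from 30.8% in the shallowest to 40.2% in the deepest, effector T-like barcodes of C3 from 21.5% to 31.3%, and macrophage-like barcodes of C2 from 8.18% to 13.7%. In B-like barcodes of C4 the share hardly differed, at 25.6% in the shallowest and 26.4% in the deepest. In those of C3 the deepest barcodes, at 26.1%, were below the shallowest, at 26.5%. Among B-like clusters of C3, cluster 18 was deeper, with a median of 15563 UMIs and a share of 23.5%, than cluster 2, with 4848 UMIs and 30.3%.

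**Figure D2:**
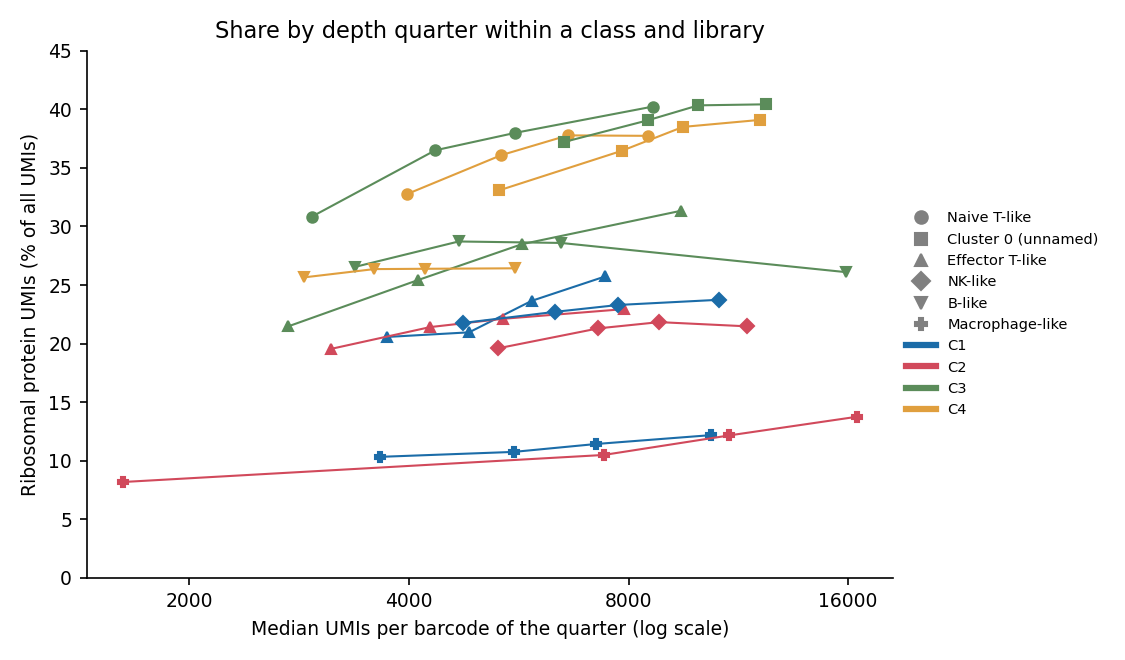
Ribosomal protein share (percent of UMIs) against the median UMIs per barcode (log axis) of 4 equal parts by depth within a class and library. The deepest part lies above the shallowest in naive and effector T-like and macrophage-like barcodes and in cluster 0, and below it in B-like barcodes of C3.

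Large and small subunit genes kept nearly 1 proportion. The large-over-small ratio of summed UMIs was 1.04 and 1.03 in naive T-like barcodes of C3 and C4, 1.09 to 1.11 in effector T-like barcodes of the 4 libraries, 1.09 and 1.11 in macrophage-like ones of C1 and C2, and 1.12 to 1.16 in plasma-like barcodes. These counts per gene do not give protein or subunit amounts.

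Naive and effector T-like barcodes could be set side by side within C3 and within C4, where they share a library. Naive over effector, the summed level was 1.32 times as high in C3 and 1.49 times in C4. All 77 structural genes had a higher level in CPM (UMIs per 1000000 UMIs of the class) in naive barcodes of both libraries, where 34.5% and 36.4% of all genes with at least 50 UMIs in both classes together did. The median log2 ratio of the structural genes was 0.40 and 0.53, that of all genes tested -0.14 and -0.28. At least 1.5-fold higher were 5 of 77 in C3, against 5.89% of all genes tested, and 29 of 77 in C4, against 15.2%. No structural gene was 1.5-fold lower, where 16.6% and 28.2% of all genes were. In C4 the naive sum is 18147243 UMIs and the effector sum 437029, so genes that just pass the minimum have few effector UMIs. Over genes with at least 50 UMIs expected in the smaller sum, 3.95% in C3 and 13.9% in C4 were 1.5-fold higher. All 77 structural genes passed that minimum. Genes outside the pattern that passed it had a median log2 ratio of -0.16 in both libraries.

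The counts past 1.5-fold depended on how barcodes were classed. The share of all genes past 1.5-fold was not computed under the alternative settings that follow, so these counts have no background beside them. Over barcodes of 2000 to 6000 UMIs the C3 count was 25 and the C4 count 53, and with a class given to each barcode from its own markers 30 and 64. With each library clustered alone the C3 count was 67, and C4 had no effector T-like cluster. The C3 classes then held 1852 naive and 416 effector T-like barcodes, against 659 and 944 in the main classing. That count thus compares partly different barcodes. The direction of the summed ratio was the same under every alternative that gave a value.

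To take out the change of the sum, each gene was also given as its share of all ribosomal protein UMIs. This share lay within a factor of 0.8 of its effector value, either way, in 74 of 77 genes in C3 and 72 of 77 in C4. Rps19 departed most upward, with composition ratios of 1.29 and 1.23 in C3 and C4. Rps19, a small subunit protein whose human gene is mutated in Diamond-Blackfan anaemia, stood at 6257 CPM in naive and 3647 CPM in effector T-like barcodes of C3, a ratio of 1.72 (1.68 to 1.75), and at 6016 and 3288 CPM in C4, a ratio of 1.83 (1.74 to 1.93). The naive level was the higher in both libraries. Next came Rps20 (1.22 and 1.16), Rpl12, a protein of the stalk base of the large subunit (1.12 and 1.21), Rpl36a (1.19 and 1.14) and Rps24 (1.14 and 1.12), each listed for C3 and C4. Rps20 stood at 8313 and 7826 CPM in naive T-like barcodes of C3 and C4 and at 5132 and 4547 CPM in effector ones. Rpl12 stood at 4381 and 4218 CPM in naive T-like barcodes of C3 and C4 and at 2956 and 2345 CPM in effector ones. These levels, too, were higher in naive barcodes of both libraries.

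At the other end, Rps12 had composition ratios of 0.845 and 0.704 in C3 and C4. Rps12, a small subunit protein, stood at 4416 CPM in naive and 3942 CPM in effector T-like barcodes of C3, a ratio of 1.12 (1.10 to 1.14), and at 3660 and 3503 CPM in C4, a ratio of 1.04 (0.993 to 1.10). The C4 interval includes 1. Rps12 was higher in cluster 0 than in naive T-like barcodes, at 6472 CPM in C3 and 5074 CPM in C4. Its composition ratio in C3 turned to 1.18 when that library was clustered alone. Rpl41 stood at 898 and 871 CPM in naive T-like barcodes of C3 and C4 and at 804 and 810.0 CPM in effector ones. The composition ratios of Rpl41, which encodes a very short basic peptide, were 0.843 and 0.724, those of Rpl27 0.782 and 0.813, of Rpl13a 0.772 and 0.900 and of Rpl24 0.858 and 0.867 in C3 and C4. Rpl13a, known for a role of its protein outside the ribosome in interferon-treated myeloid cells, had nearly the same level in both classes of C3, 5181 and 5067 CPM. In C4 it stood at 4767 and 3567 CPM, and its composition ratio there became 1.01 with a class per barcode. That of Rpl24 in C4 became 1.06 over barcodes of 2000 to 6000 UMIs.

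**Figure D3:**
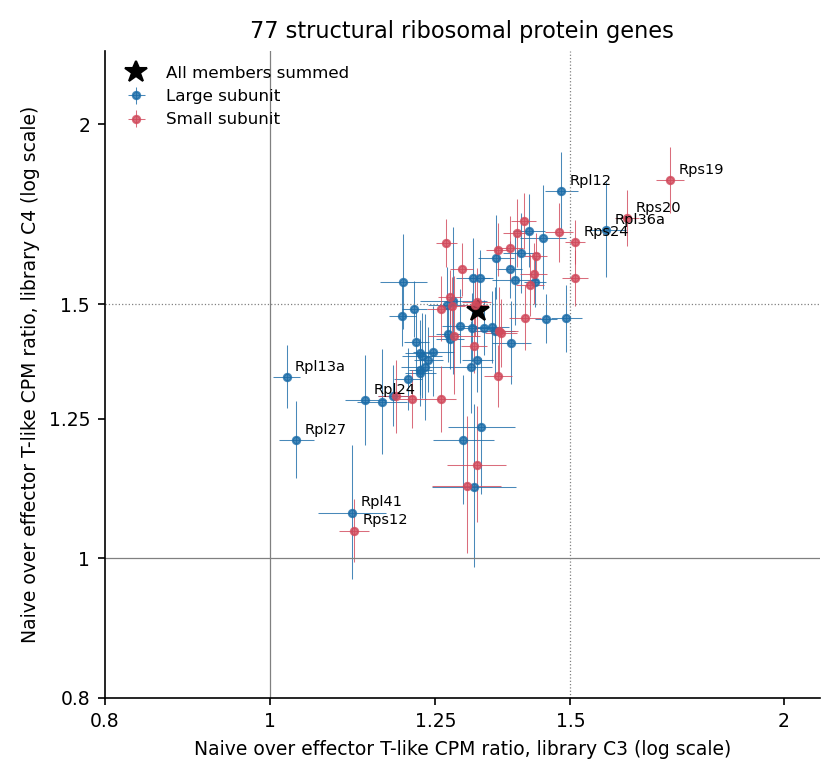
Naive over effector T-like ratio of CPM in C3 (horizontal) and C4 (vertical), both on log axes, for the 77 structural genes; bars are 95% counting intervals, the star is the sum of all members and dotted lines mark 1.5. All points lie above 1 on both axes, from 1.02 to 1.72 in C3 and 1.04 to 1.83 in C4.

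Cluster 0 was close to naive T-like barcodes in these genes. The summed ratio of naive over cluster 0 was 0.955 in C3 and 0.977 in C4, and 0 of 77 structural genes were 1.5-fold higher or lower, where 11.4% and 13.1% of all genes tested were higher and 9.33% and 8.03% lower. Against effector T-like barcodes, 17 of 77 were at least 1.5-fold higher in cluster 0 in C3 (8.75% of all genes) and 38 of 77 in C4 (9.06%). Cluster 0 had 9203 UMIs per barcode at the median in C3 and effector T-like barcodes 4860.

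Lymphocytes and macrophages could be compared within C1 and C2. NK-like over macrophage-like, the sum was 2.01 times as high in C1 and 1.72 times in C2. At least 1.5-fold higher were 72 of 77 structural genes in C1 and 60 of 77 in C2, against 43.1% and 34.2% of all genes tested, a high background. Effector T-like over macrophage-like gave 67 and 57 of 77, against 38.2% and 35%. Between effector T-like and NK-like barcodes the sums were nearly equal, with ratios of 1.01 and 1.03. There, 0 of 77 were 1.5-fold higher, against 11.4% and 13% of all genes, and 1 of 77 was 1.5-fold lower in each library, against 16.7% and 14.3%.

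That gene was Rpl10, which encodes a late-joining protein of the large subunit near its catalytic centre. It stood at 400.1 CPM in effector T-like, 656 CPM in NK-like and 569.7 CPM in macrophage-like barcodes of C1. In C2 the levels were 369.9, 622 and 555 CPM. Effector T-like barcodes were thus the lowest of these classes in both libraries, with ratios to NK-like barcodes of 0.609 (0.573 to 0.648) and 0.595 (0.565 to 0.626). Rpl10 was the 1 structural gene lower in effector T-like than in macrophage-like barcodes, at 0.702 (0.661 to 0.746) in C1 and 0.667 (0.636 to 0.699) in C2. Rpl13a lay at the opposite end of that comparison, 3.74 (3.65 to 3.83) and 3.13 (3.05 to 3.22). Near-identical copies of a ribosomal protein gene can share reads, and the sources used here do not say how such reads were counted. The level and composition ratio of any single gene, Rpl10 and Rpl41 among them, are therefore less certain than the sum.

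Naive T-like over B-like barcodes, the sum was 1.40 times as high in C3 and 1.39 times in C4. At least 1.5-fold higher were 15 of 77 structural genes in C3, against 14.3% of all genes tested, and 14 in C4, against 15%, so these counts are little above the background. Rplp1, a protein of the acidic stalk that binds elongation factors, differed most in both, at 9652 against 5031 CPM in C3 and 8557 against 4259 CPM in C4. B-like over effector T-like, 46, 29 and 50 of 77 had a higher level in C1, C3 and C4, against 38.2%, 50.8% and 48.8% of all genes tested. Monocyte-like over macrophage-like, 38 of 77 were 1.5-fold higher in C1 (22.2% of all genes tested) and 1 of 77 in C2 (14.9%).

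B-like over plasma-like, the sum was 4.31 times as high in C1 and 4.52 in C3. All 77 structural genes were at least 1.5-fold higher, but so were 73.6% and 84.5% of all genes tested. The spread between genes was wide, from 1.89 (Rpl41) to 8.25 (Rps27) in C1 and from 1.57 to 7.86 in C3 for the same genes.

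Naive T-, effector T-, NK-, B-, plasma- and macrophage-like barcodes were compared by means with libraries weighted equally, each with at least 20 barcodes of the class. The macrophage-like means thus include the 23 barcodes of C3, beside 2475 in C1 and 459 in C2, and the NK-like means the 33 of C4. The share of a structural gene within the ribosomal protein UMIs differed by a median of 1.30 times between its highest and lowest class. The difference was under 1.5 times in 63 of 77 genes. Rpl41 differed most, with 8.81 of 1000 ribosomal protein UMIs in plasma-like and 2.38 in naive T-like barcodes. In single libraries it held 7.39, 8.46 and 10.6 per 1000 in plasma-like barcodes and 2.38 in naive ones of both C3 and C4. The gene was picked for this difference, and the plasma-like values rest on 43, 22 and 35 barcodes. Rpl10 was high in plasma-like (4.60) and macrophage-like barcodes (3.87) and low in naive ones (1.67). Because the macrophage-like mean includes the 23 barcodes of C3, which of these classes is highest for Rpl10 is not settled. Rpl12 went the other way, from 11.6 in naive T-like to 5.98 in plasma-like barcodes. Rps27, a zinc-binding small subunit protein, was highest in B-like (30.9) and lowest in plasma-like barcodes (16.3). Rpl7a ran from 4.54 in naive T-like to 8.04 in plasma-like barcodes.

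**Figure D4:**
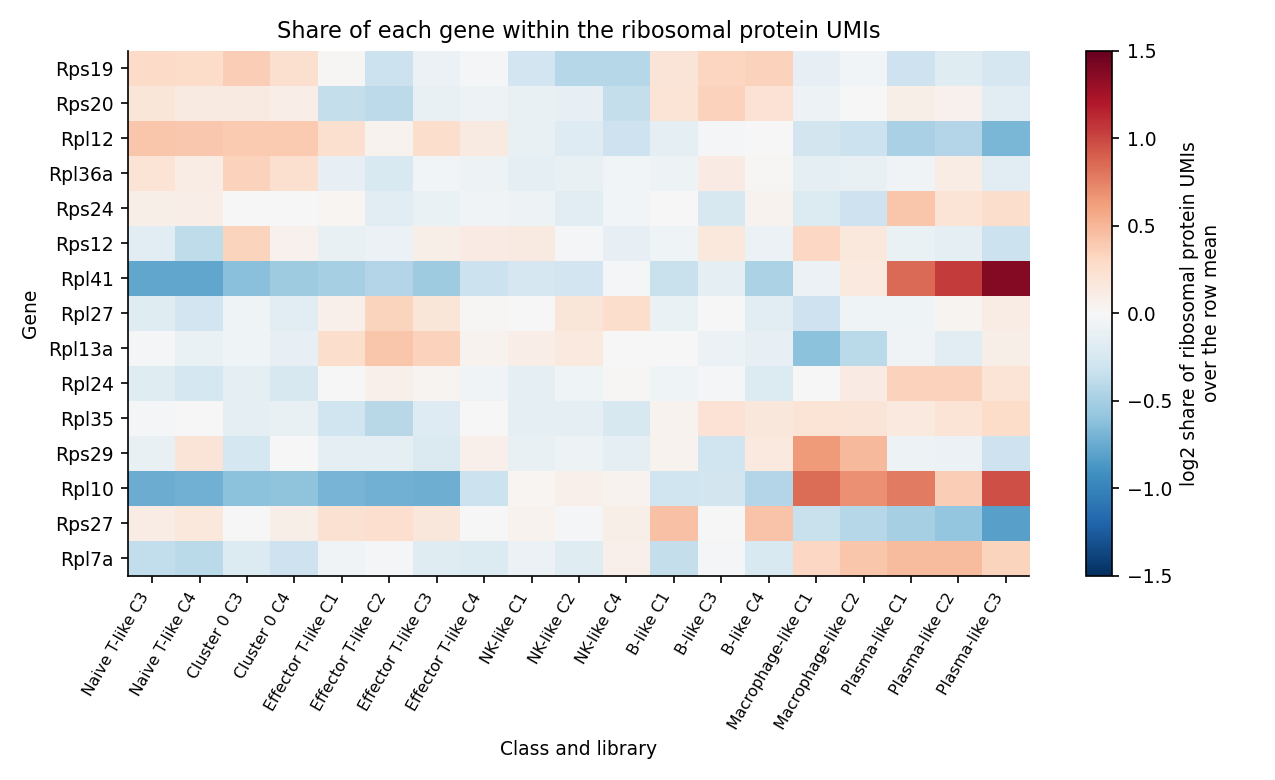
Colour shows the log2 share of each named gene within the ribosomal protein UMIs over its mean across the columns, by class and library. Rpl41 and Rpl10 are high in plasma-like columns and low in naive T-like ones, and Rpl12 runs the other way.

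The libraries also differed within a class. In effector T-like barcodes the sum was 1.30 times as high in C3 as in C2, with 4 of 77 structural genes at least 1.5-fold higher against 6.72% of all genes tested, and different clusters held the class. With each library clustered alone, the ratio of C3 over C2 was 1.08. Salivary genes were 2.17% of effector T-like UMIs in C2 and 0.000294% in C3; their part in the difference was not tested. In naive T-like barcodes C3 and C4 were close, with a ratio of 1.03, and so were NK-like barcodes of C1 and C2, at 1.09. In regulatory T-like barcodes, which carry Foxp3, the share was 17.5% in C2 (74 barcodes), 24.6% in C3 (86) and 30.3% in C4 (267). C4 over C2, 67 of 77 structural genes were at least 1.5-fold higher against 14.9%. The regulatory T-like barcodes of these libraries also differed in markers. Lef1 stood at 225 CPM in C4 and 41.0 CPM in C2, and Ccl5 at 94.7 and 3195 CPM. The part of such differences in the ratio was not tested. Over the T-like classes together, without cluster 0, Rps19 stood at 3210, 2372, 4415 and 5681 CPM in C1 to C4, a highest-over-lowest ratio of 2.40. Rps20, Rpl35, Rpl12 and Rps29 followed, with ratios of 2.28, 2.11, 2.08 and 2.04, each highest in C4 and lowest in C2. Naive T-like barcodes, the highest of these classes, are described in C3 and C4 alone, so these ratios also carry the mix of T-like barcodes. Cluster 0, left out here, held 4416 barcodes in C3 and 231 in C4. In C3 its Rps19 level was 1.90 times that of effector T-like barcodes. Which library is highest with cluster 0 included was not tested.

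The paralog forms held 0.677% of the 96 genes' UMIs, nearly all in Rpl36al (151701 UMIs), Rpl22l1 (140107) and Rps27l (24960). Rpl22l1, a paralog of Rpl22, which is known for a role in T cell development, followed the structural genes. It stood at 1060 and 1081 CPM in naive T-like barcodes of C3 and C4, 362 and 329 CPM in macrophage-like ones of C1 and C2, and 142, 109.7 and 136 CPM in plasma-like barcodes of C1, C2 and C3. Rps27l, a paralog of Rps27 known as a p53 target, did not follow them. It stood at 85.2 and 73.0 CPM in naive T-like barcodes of C3 and C4, reached 359.7 CPM in the 47 monocyte-like barcodes of C4, and stood at 208, 266 and 326 CPM in plasma-like barcodes. Rpl36al kept 866, 853 and 1078 CPM in plasma-like barcodes, near its 1066 and 984 CPM in naive T-like barcodes of C3 and C4, although the structural sum there was far lower. Rpl7l1 had 7454 UMIs in all, Rps27rt 3369, Rpl39l 142 and Rpl3l, known from skeletal and heart muscle, 41. Rpl10l, known from testis, had 0 UMIs, a count that allows up to 3. Of the 11 genes that encode no ribosomal protein, Rps6ka1 had the most UMIs (16289) and Rps6ka6 the fewest (9); the others were Rps6ka3 (7877), Rps6kb1 (7401), Rps19bp1 (4756), Rps6kb2 (3932), Rps6ka4 (2658), Rps6ka5 (2437), Rps6kc1 (875), Rps6ka2 (346) and Rps6kl1 (143).

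**Figure D5:**
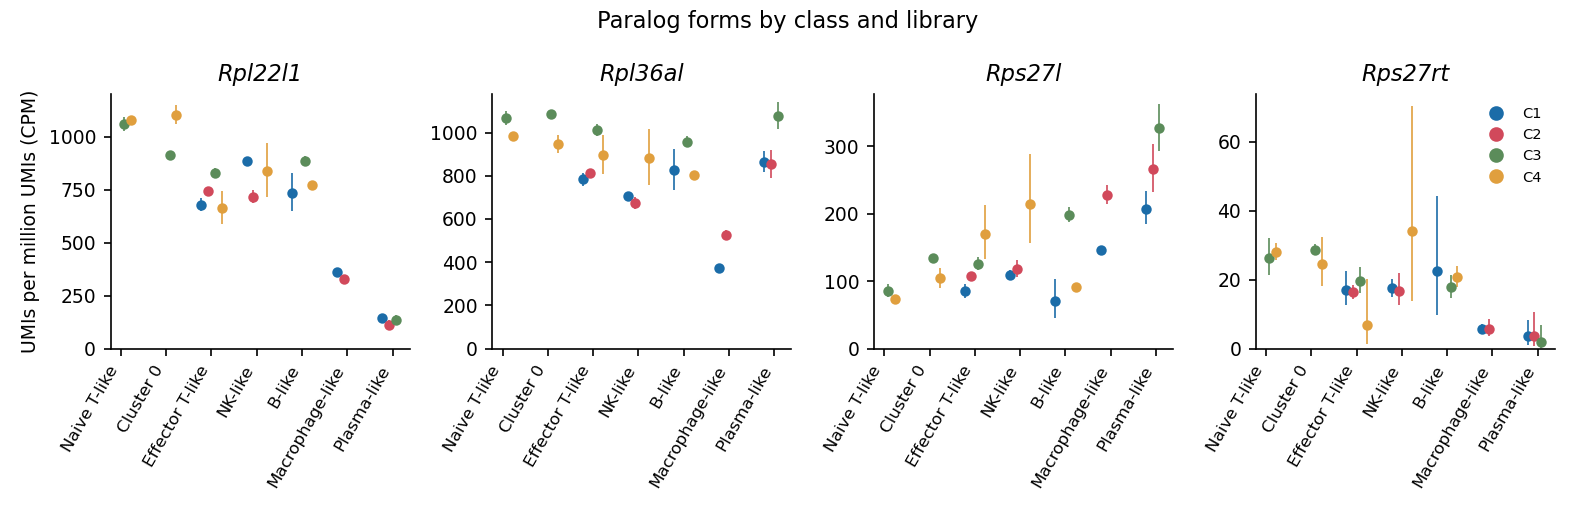
Level in CPM of Rpl22l1, Rpl36al, Rps27l and Rps27rt by class, with 1 point per library and 95% Poisson intervals for counting error. Rpl22l1 is lowest in plasma-like barcodes, at 109.7 to 142 CPM, where Rps27l reaches 326 CPM.

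Other genes of the translation machinery were read from lists, whose C4 counts rest on the 66 effector T-like barcodes. Naive over effector T-like, the summed level of 23 translation factors was 1.18 in C3 and 1.29 in C4, with 1 and 2 genes at least 1.5-fold higher and 0 and 2 lower. Of all genes tested, 5.89% in C3 and 15.2% in C4 were 1.5-fold higher and 16.6% and 28.2% lower. Eef1b2, an exchange factor of translation elongation, was higher in naive barcodes in both, at 2025 against 1346 CPM in C3 and 1895 against 1162 CPM in C4. The 78 mitochondrial ribosome genes, whose products make the separate ribosome of mitochondria, had ratios of 0.965 and 0.856. Of them, 2 and 3 were 1.5-fold higher and 4 and 15 lower, where 16.6% and 28.2% of all genes tested were lower. The 28.2% of C4 includes genes with few effector UMIs. For 24 ribosome biogenesis genes the ratio was 1.15 in C3 and 0.824 in C4, on opposite sides of 1. For 8 genes around mTOR and Myc it was 0.977 and 0.885. The median log2 ratio in C3 and C4 was 0.08 and 0.06 for translation factors and -0.01 and -0.24 for mitochondrial ribosome genes. It was 0.22 and -0.24 for biogenesis genes and -0.31 and -0.74 for the endoplasmic reticulum genes described next. For all genes tested it was -0.14 and -0.28. Over genes outside the pattern with at least 50 UMIs expected in the smaller sum it was -0.16 in both libraries. The C4 medians of -0.24 lay below that value. The 12 genes of protein entry and folding in the endoplasmic reticulum were lower in naive barcodes, 0.833 and 0.561, with 0 and 8 of 12 at least 1.5-fold lower, against 16.6% and 28.2% of all genes tested. That list was higher in plasma-like than in naive T-like barcodes, at 4910, 5493 and 8197 CPM, against 1828 and 1740 CPM.

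Across 29 combinations of class and library with at least 50 barcodes, genes outside the pattern whose log2 CPM ran close to the summed level were Eef1b2 (Pearson r = 0.990), Rack1 (0.983), Eef1a1 (0.977), Rpl9-ps6 (0.976), Naca (0.967), Npm1 (0.966), Nsa2 (0.964), Gm10076 (0.962) and Bola2 (0.960), of 4019 genes with at least 100 CPM in a class. Eef1b2 and Eef1a1 serve translation elongation, Rack1 is a protein of the small subunit, Naca binds chains as they leave the ribosome, and Npm1 and Nsa2 act in ribosome assembly. Rpl9-ps6 is by its symbol a copy of Rpl9. It stood at 4362 CPM in naive T-like barcodes of C3, and Rpl9 at 999 CPM over all kept barcodes of C3. These levels cover different sets of barcodes, so the size of the gap cannot be read from them. Whether Rpl9-ps6 and Rpl9 share reads was not tested. Among the structural genes Rpl10 followed the sum least, with r = 0.747. The combinations share libraries and depth and are not independent, so these values are a description.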

How the data were processed

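The authors deposited whole-number counts of UMIs per gene and barcode, not normalized, written by Cell Ranger 4 per the file headers. Cell Ranger 6.1.2 and STAR 2.7.10a with mm10 are named in the submitters' processing notes. The labels' protocols name a BD Rhapsody preparation and the design text 10x; the barcodes have 16 bases. Collagenase was used on glands and trituration on nodes, per the labels' protocols. The receptor libraries were not analysed here.

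Kept barcodes had 500 or more UMIs, 300 or more genes and no more than 10% mitochondrial UMIs, and doublets called by Scrublet (scanpy 1.11.5) removed. Clustering left out ribosomal protein and receptor V, D and J genes (2000 variable genes, 30 components, 15 neighbours, leidenalg 0.10.2 at resolution 1). Clusters were named from marker lists needing at least 3 markers; the naming steps, the T-like split and the salivary gene list were set after clusters had been seen. UMIs were summed per class and library, with exact Clopper-Pearson, Poisson and conditional binomial 95% intervals, for counting error only. Named genes are the 5 highest and 5 lowest composition ratios of naive over effector T-like, the 5 most different between libraries in T-like barcodes, the 5 most different between classes, all paralog forms and other genes the pattern takes, members with 0 UMIs, and the 10 most similar genes; values that need 1 gene these rules name are not reported here. Fold calls and intervals were tested on simulated data. At the class sizes of C4 the planned minimum of 50 UMIs in both classes together let many unchanged genes pass the fold, so a minimum on the smaller sum was added after this was seen. The members and lists were chosen with earlier results of these data known. Alternatives changed depth, mitochondrial and doublet limits, classing, members and denominator.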

Additional observations from a re-analysis of the deposited data

How the results depend on the processing

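No label gives a library a group, so values are set against their counting interval, which is narrow at this depth, and many moved past it by a small amount. Of 170 values for the main results under the alternatives, 76 stayed within that interval or within 1.5 times the count and 94 moved. A change of direction could be called only for the naive over effector T-like and NK-like over macrophage-like ratios, and none occurred there. The B-like over effector T-like ratio, which changed side in C3, was not among the 170 values. The mean over libraries of the share in naive T-like barcodes was 37.2%; it was 37.3% with a minimum of 1000 UMIs, 37.4% with at most 5% mitochondrial UMIs, 36.5% with no doublets removed, 37.3% with the top 5% of doublet scores removed, 37.1% with clusters made with the members, 39.0% with each library clustered alone, 35.3% with a class per barcode, 35.5% with 2000 to 6000 UMIs, 37.0% with structural members only, 38.1% with a reduced denominator and 36.9% with the median over barcodes. The mean over libraries of the share in effector T-like barcodes was 24.6%; it was 24.4% with the top 5% of doublet scores removed, 24.0% with clusters made with the members, 21.5% with a class per barcode, 22.4% with 2000 to 6000 UMIs, 24.4% with structural members only, 25.3% with a reduced denominator and 23.1% with the median over barcodes. The mean over libraries of the share in NK-like barcodes was 22.2%; it was 22.0% with no doublets removed, 22.3% with the top 5% of doublet scores removed, 22.3% with clusters made with the members, 22.1% with each library clustered alone, 21.7% with a class per barcode, 20.8% with 2000 to 6000 UMIs, 22.0% with structural members only, 22.8% with a reduced denominator and 22.0% with the median over barcodes. The mean over libraries of the share in B-like barcodes was 26.0%; it was 26.1% with at most 5% mitochondrial UMIs, 26.2% with no doublets removed, 25.7% with the top 5% of doublet scores removed, 26.3% with each library clustered alone, 26.3% with a class per barcode, 26.9% with 2000 to 6000 UMIs, 25.8% with structural members only, 27.2% with a reduced denominator and 26.7% with the median over barcodes. The mean over libraries of the share in plasma-like barcodes was 5.67%; it was 6.48% with each library clustered alone, 6.38% with a class per barcode, 5.53% with structural members only, 16.8% with a reduced denominator and 4.60% with the median over barcodes. The mean over libraries of the share in macrophage-like barcodes was 11.9%; it was 12.0% with at most 5% mitochondrial UMIs, 12.4% with no doublets removed, 11.6% with the top 5% of doublet scores removed, 12.0% with clusters made with the members, 12.0% with each library clustered alone, 11.7% with a class per barcode, 10.1% with 2000 to 6000 UMIs, 11.8% with structural members only, 12.3% with a reduced denominator and 11.1% with the median over barcodes. The naive over effector T-like ratio of the share in C3 was 1.32; it was 1.33 with at most 5% mitochondrial UMIs, 1.29 with no doublets removed, 1.39 with the top 5% of doublet scores removed, 1.33 with clusters made with the members, 1.73 with each library clustered alone, 1.48 with a class per barcode, 1.40 with 2000 to 6000 UMIs and 1.39 with the median over barcodes. The number of structural genes at least 1.5-fold higher in C3 was 5; it was 3 with no doublets removed, 13 with the top 5% of doublet scores removed, 67 with each library clustered alone, 30 with a class per barcode and 25 with 2000 to 6000 UMIs. The naive over effector T-like ratio of the share in C4 was 1.49; it was 1.61 with clusters made with the members, 1.69 with a class per barcode, 1.67 with 2000 to 6000 UMIs and 1.66 with the median over barcodes. The number of structural genes at least 1.5-fold higher in C4 was 29. It was 52 with clusters made with the members, 64 with a class per barcode and 53 with 2000 to 6000 UMIs. For these alternative counts in C3 and C4 the share of all genes past 1.5-fold was not computed. The highest-over-lowest ratio between libraries in effector T-like barcodes was 1.30; it was 1.28 with no doublets removed, 1.24 with the top 5% of doublet scores removed, 1.28 with clusters made with the members, 1.08 with each library clustered alone, 1.16 with a class per barcode, 1.23 with 2000 to 6000 UMIs, 1.28 with a reduced denominator and 1.26 with the median over barcodes. The NK-like over macrophage-like ratio in C1 was 2.01; it was 1.90 with no doublets removed, 2.04 with the top 5% of doublet scores removed, 2.00 with clusters made with the members, 1.98 with a class per barcode, 2.09 with 2000 to 6000 UMIs, 2.01 with a reduced denominator and 2.09 with the median over barcodes. The NK-like over macrophage-like ratio in C2 was 1.72; it was 1.71 with at most 5% mitochondrial UMIs, 1.66 with no doublets removed, 1.80 with the top 5% of doublet scores removed, 1.68 with each library clustered alone, 1.73 with a class per barcode, 2.03 with 2000 to 6000 UMIs, 1.72 with a reduced denominator and 1.87 with the median over barcodes. Among single named genes, composition ratios of naive over effector T-like changed side in 3 cases: Rps12 in C3 to 1.18 with each library clustered alone, Rpl13a in C4 to 1.01 with a class per barcode, and Rpl24 in C4 to 1.06 with 2000 to 6000 UMIs. B-like over effector T-like in C3, 0.946, turned to 1.15 with each library clustered alone, 1.16 with a class per barcode, 1.09 with 2000 to 6000 UMIs and 1.05 with the median over barcodes. The cause of these changes was not tested. The reduced denominator leaves out mitochondrial, immunoglobulin, T cell receptor and salivary genes. Clustering each library alone and keeping doublets left no effector T-like value in C4, so the ratio between libraries is there over C1 to C3, and plasma-like barcodes had none at 2000 to 6000 UMIs. The minimum on the smaller sum was added after the data were seen. No paired analysis was possible because the libraries have no group and each group has 1 sample. Leaving out a replicate was not possible for the same reason. In C4 the 66 effector T-like barcodes limit every value that uses them.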
